A study of Danio rerio with 24 samples.

Results

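The Hox cluster genes are the 48 of 32521 rows of the deposited table whose symbol is hox, a cluster letter (a to d), a paralogue number and a copy letter. RNA was measured by poly(A) sequencing in 24 libraries of zebrafish embryos, in 12 groups of 2 replicates, 6 hours after injection at the 1-cell stage with Cas13d, a CRISPR nuclease that cuts RNA matched by a guide RNA. The series asked how well mRNAs can be knocked down in animal embryos with this nuclease. Its values are TPM (a length-corrected share of each library's transcripts, scaled to the same total in each), which keep no sequencing depth, so the depth is unknown and no counting interval can be given.

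The first set of 6 groups used embryos that carry maternal RFP mRNA from a transgene. Its groups were Cas13d mRNA (200 to 250 pg per embryo) with nanog guides, with rfp guides, with dnd guides and a reporter, with the reporter alone, or with nothing further, and uninjected embryos. Guides were given at 500 to 600 pg, and the reporter was gfp mRNA (40 pg) with the nanos 3′ UTR. The second set of 6 groups had szrd1 guides with Cas13d protein, dnd1 guides with Cas13d protein and the reporter, Cas13d protein with the reporter, Cas13d protein alone, szrd1 guides with Cas13d mRNA, and Cas13d mRNA alone. Protein was given at 3 ng per embryo, except that 1 label of the dnd1 guide group writes this unit unclearly. No library with Cas13d protein had an uninjected control in its own set. Unless the first set is named, Cas13d mRNA alone stands for the group of the second set. Whole embryos were sampled, so fewer cells of a type and less RNA per cell cannot be told apart.

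Hox genes encode homeodomain transcription factors that give cells along the head-to-tail axis their regional identity. They lie in clusters, and genes at one end (low paralogue numbers) are in general used earlier and nearer the head than genes at the other end. In the early embryo their start depends on retinoic acid, Fgf, Wnt and Cdx inputs, and many Hox proteins bind DNA together with Pbx and Meis proteins. Zebrafish keep duplicated a and b copies of several clusters from a fish genome duplication, and the table holds genes of 7 clusters. Near the start of gastrulation, when these embryos were sampled, few Hox genes are normally in use, with hoxb1b of the future hindbrain among the earliest.

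In 20 of the 24 libraries the Hox genes were at or near 0. Their summed level was 46.8 and 54.1 TPM in embryos with szrd1 guides and Cas13d protein and 119.9 and 146.0 TPM with Cas13d protein alone, against 2.25 to 7.05 TPM in each of the 20 other libraries. Thus the 4 libraries stood apart from all others, and the 4 other libraries with Cas13d protein, those whose labels add the reporter, did not join them. Taking a group mean of at least 1 TPM as "on", 9 members were on with szrd1 guides and Cas13d protein, and 11 with Cas13d protein alone. With szrd1 guides and Cas13d mRNA, hoxb1a was on, and in 4 groups of the first set hoxc11a was on. The 5 remaining groups had none. In total 12 members were on in some group and 36 stayed below 1 TPM in every group. Every one of the 48 was listed above 0 in at least 1 library.

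**Figure D1:**
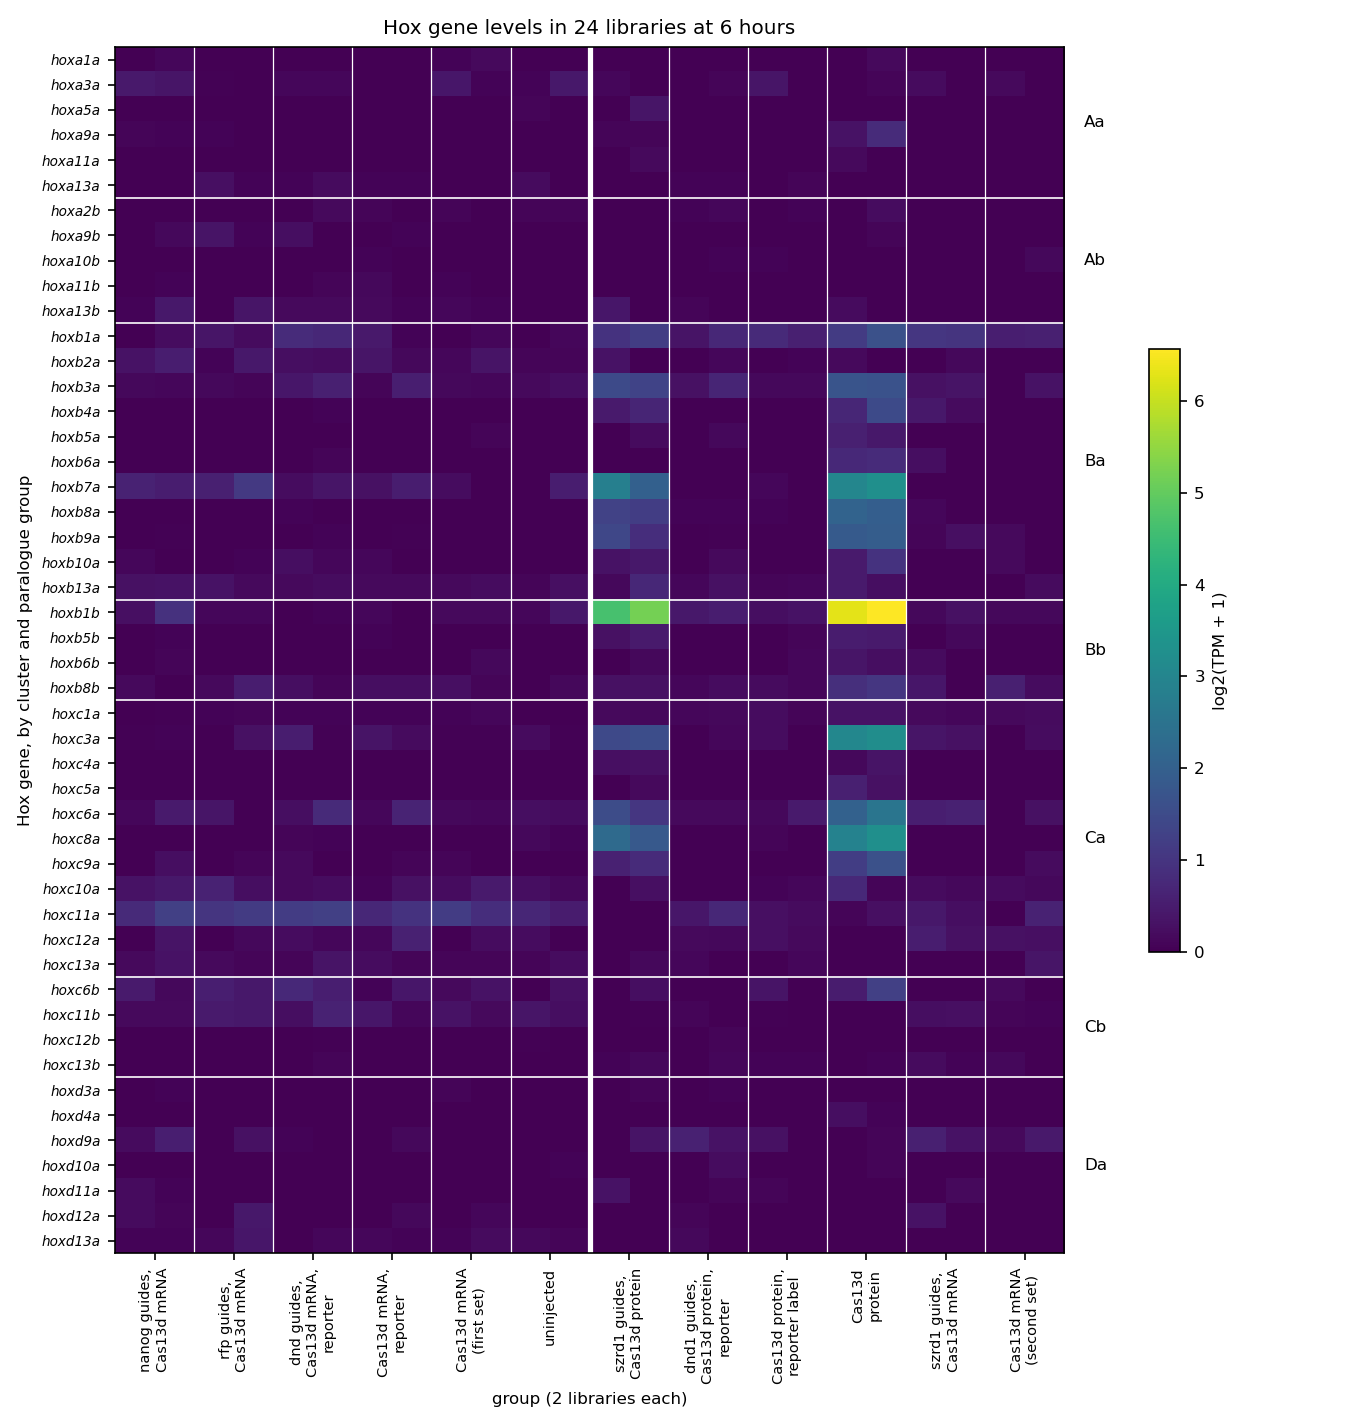
Level of each of the 48 Hox genes (rows, by cluster and paralogue group) in each of 24 libraries (columns, 2 per group, the first set left of the thick line), coloured by log2(TPM + 1). The rows of the Ba, Bb and Ca clusters light up in the libraries with Cas13d protein alone and with szrd1 guides and Cas13d protein, and hoxc11a forms a faint band across the first set.

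The paralogue group 1 gene of the Bb cluster, hoxb1b, which helps to set up hindbrain segments, held most of the Hox signal. It measured 24.3 and 35.6 TPM with szrd1 guides and Cas13d protein, and 78.3 and 94.1 TPM with Cas13d protein alone. In the 20 other libraries its lowest, median and highest levels were 0, 0.115 and 0.90 TPM. The 2 groups overlapped neither each other nor any other group. Its share of all Hox TPM was 52.0% and 65.8% with szrd1 guides and Cas13d protein and 65.3% and 64.5% with Cas13d protein alone. The duplicate hoxb1a, a gene of the fourth hindbrain segment, behaved differently. It measured 0.95 and 1.29 TPM with szrd1 guides and Cas13d protein, 1.21 and 2.12 TPM with Cas13d protein alone, 1.06 and 0.99 TPM with szrd1 guides and Cas13d mRNA, and 0.47 and 0.48 TPM with Cas13d mRNA alone, all in the second set. In the first set it had 0.01 and 0.09 TPM with Cas13d mRNA alone and 0 and 0.09 TPM in uninjected embryos. It was higher there with dnd guides and reporter, at 0.76 and 0.67 TPM, the highest values of that set. Its values overlapped between several groups of the second set.

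Within the Ba cluster, 6 of 11 members were on in Cas13d protein embryos, and the most abundant was not the first of the cluster. The trunk gene hoxb7a measured 6.13 and 3.02 TPM with szrd1 guides and Cas13d protein and 7.05 and 8.59 TPM with Cas13d protein alone. In the second set it was listed at 0 in both libraries with dnd1 guides, in both with szrd1 guides and Cas13d mRNA and in both with Cas13d mRNA alone. In the first set it reached 1.12 TPM in 1 library with rfp guides, and had 0.16 and 0 TPM with Cas13d mRNA alone. Its neighbours by number were lower. The levels of hoxb8a were 1.46 and 1.28 TPM with szrd1 guides and Cas13d protein and 3.25 and 2.89 TPM with protein alone. For hoxb9a the values were 1.62 and 0.80 TPM with szrd1 guides and 2.61 and 2.80 TPM with protein alone. Of the anterior members, which act in hindbrain segments and the tissue behind them, hoxb3a had 1.78 and 1.51 TPM with szrd1 guides and Cas13d protein and 2.27 and 2.15 TPM with protein alone. The values of hoxb4a were 0.40 and 0.61 TPM with szrd1 guides and 0.64 and 1.79 TPM with protein alone. Between hoxb4a and hoxb7a by number lay members below 1 TPM: with Cas13d protein alone, hoxb5a had 0.50 and 0.35 TPM and hoxb6a 0.70 and 0.76 TPM. Before hoxb3a, hoxb2a had 0.12 and 0 TPM there.

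Of the 11 Ca cluster members, 4 were on with Cas13d protein alone. The highest were hoxc3a, a paralogue group 3 gene that mammals have lost, and hoxc8a, a trunk gene. The level of hoxc3a was 1.72 and 1.93 TPM with szrd1 guides and Cas13d protein, and 7.27 and 8.30 TPM with protein alone. For hoxc8a it was 3.85 and 2.54 TPM with szrd1 guides and 6.54 and 8.61 TPM with protein alone. In the 20 other libraries hoxc3a reached at most 0.43 TPM and hoxc8a at most 0.11 TPM. The trunk genes hoxc6a and hoxc9a were lower: hoxc6a had 1.87 and 1.04 TPM with szrd1 guides and 3.13 and 4.92 TPM with protein alone, and hoxc9a had 0.53 and 0.75 TPM with szrd1 guides and 1.27 and 2.07 TPM with protein alone. As in the Ba cluster, low members lay between on members. The genes hoxc4a and hoxc5a, with 0.10 to 0.49 TPM in the libraries with Cas13d protein alone, separated hoxc3a from hoxc6a. The posterior members, numbered from 10 on, had at most 0.68 TPM there, and hoxc12a and hoxc13a were listed at 0.

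**Figure D2:**
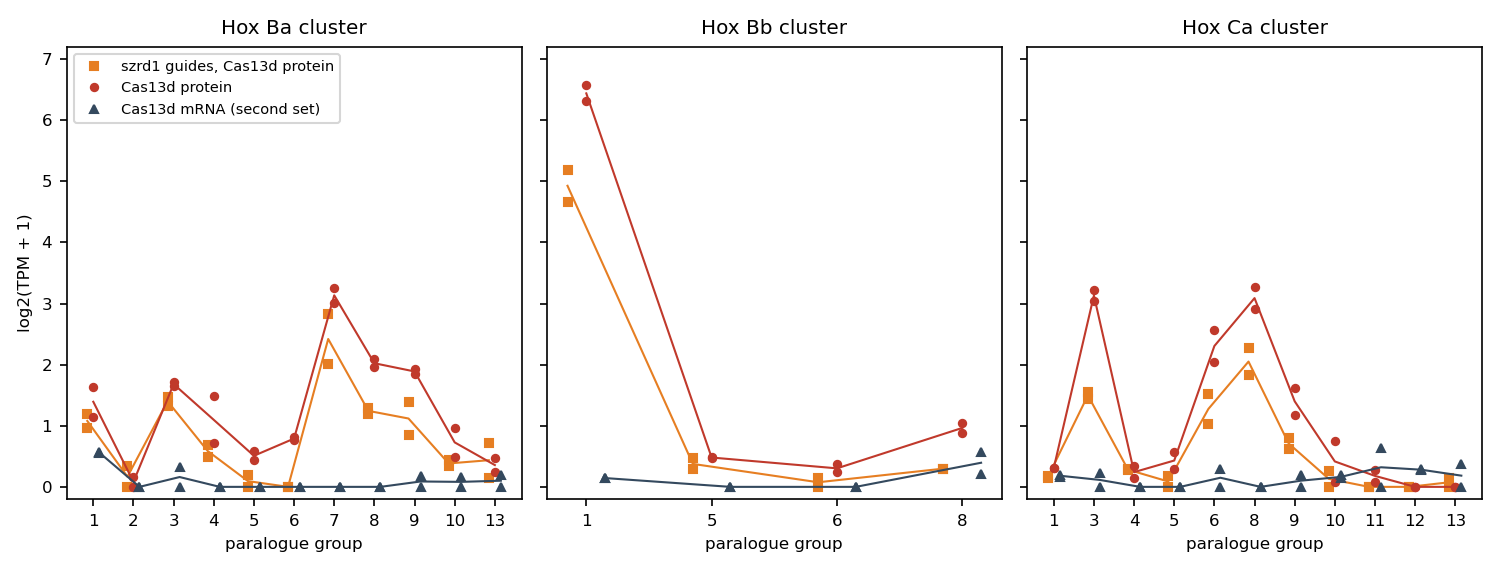
Levels along 3 Hox clusters by paralogue group, as log2(TPM + 1), with szrd1 guides and Cas13d protein, with Cas13d protein alone, and with Cas13d mRNA alone in the second set (points are libraries, lines join group means). In the Bb cluster the first gene stands alone, and the Ba and Ca clusters each have a peak at paralogue group 3 and a second one at 7 or 8, with lower genes between.

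No Hoxa or Hoxd gene was on in any group. The 18 genes of the Aa, Ab and Da clusters together made up 0.473%, 0.141% and 0.137% of the Hox TPM with Cas13d protein alone (means of 2 libraries, in that cluster order). The Bb cluster held 66.1%, the Ca cluster 16.8% and the Ba cluster 15.7%. The highest Hoxa gene was hoxa9a, at 0.25 and 0.74 TPM with Cas13d protein alone. In the Cb cluster, hoxc6b reached 1.39 TPM in 1 of the 2 libraries with Cas13d protein alone and 0.42 TPM in the other. There are 11 pairs in which the a and b copies of a cluster keep the same paralogue. With Cas13d protein alone the a copy was higher in both libraries for 5 pairs, and the b copy was higher in both for hoxb1b over hoxb1a only. Of those 5 pairs, the ones of hoxa9a, hoxb6a and hoxc11a had both copies below 1 TPM. In the 5 other pairs the libraries overlapped, as for hoxb5a and hoxb5b, with means of 0.425 and 0.395 TPM. The trunk copies hoxb8a and hoxb8b averaged 3.07 and 0.955 TPM, and hoxc6a and hoxc6b averaged 4.03 and 0.905 TPM.

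With Cas13d protein alone the order of levels began with hoxb1b, which overlapped no other member. Next came hoxb7a, hoxc3a and hoxc8a, with means of 7.82, 7.79 and 7.58 TPM, whose libraries overlapped. After them hoxc6a and hoxb8a overlapped, hoxb9a and then hoxb3a each stood below the member before in both libraries, and hoxc9a, hoxb1a and hoxb4a overlapped. Just outside the on criterion were hoxb8b, with 0.84 and 1.07 TPM, hoxc6b, and hoxb6a. In 13 of the 48 members the lowest of the 4 libraries with Cas13d protein, alone or with szrd1 guides, lay above the highest of the 20 others. These were hoxb3a, hoxb4a, hoxb7a, hoxb8a, hoxb9a and hoxb10a of the Ba cluster, hoxb1b and hoxb5b of the Bb cluster, and hoxc3a, hoxc4a, hoxc6a, hoxc8a and hoxc9a of the Ca cluster. Of all 32521 rows, 7.71% met the same criterion. This count describes these libraries and was not tested.

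**Figure D3:**
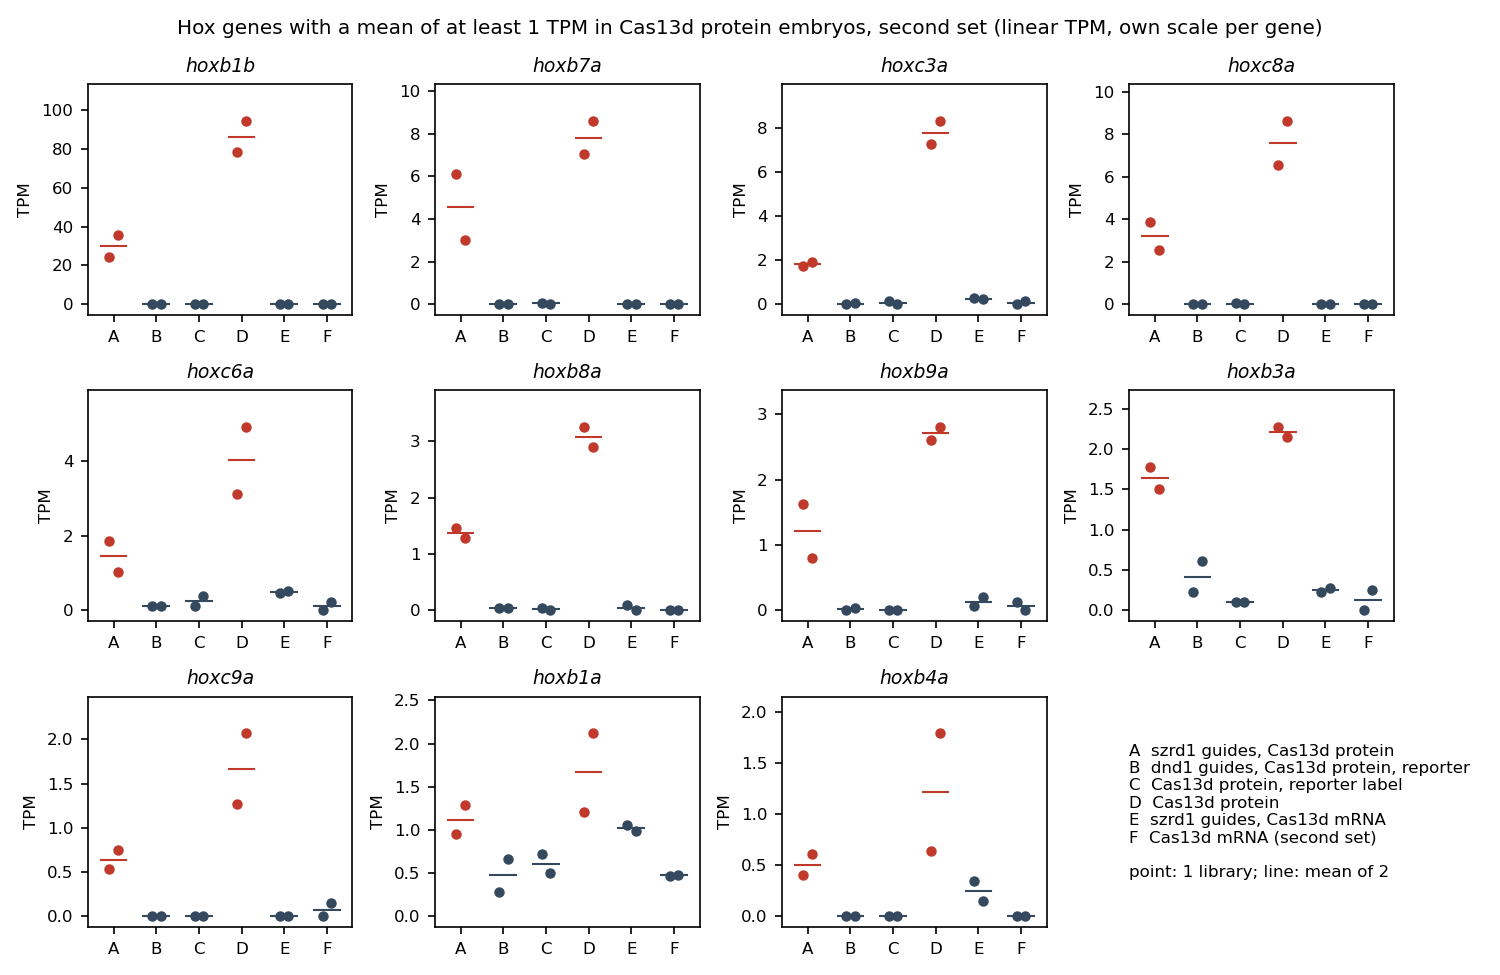
TPM of the 11 Hox genes that were on with Cas13d protein alone, in each library of the second set (points, 2 per group, lines at the means, linear axes with a scale per gene). For 10 of the 11 both libraries with szrd1 guides and Cas13d protein (A) lie below both with protein alone (D); hoxb1a is the exception, and its other groups are not near 0.

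Cas13d protein was set against Cas13d mRNA in the second set, 2 groups whose labels differ in the form of Cas13d. The reporter libraries without guides, also given Cas13d protein, had hoxb1b at only 0.19 and 0.24 TPM. Whether the form of Cas13d made the difference was not tested. Tests used limma on log2(TPM + 1) over all genes with a mean of at least 1 TPM in the set, and a gene was called at a Benjamini-Hochberg adjusted p under 0.05 with an absolute difference of at least 1. All adjusted p-values here are from that model. Only 5 of the 48 members passed the filter: hoxb1b (ENSDARG00000054033), hoxb7a (ENSDARG00000056030), hoxc3a (ENSDARG00000070339), hoxc6a (ENSDARG00000070343) and hoxc8a (ENSDARG00000070346). Each passed it through the 2 groups in which it was high, so the number called among them is no support for a difference of the family. All 5 were called higher with Cas13d protein than with Cas13d mRNA, where 11.1% of all 14716 tested genes were called higher and 10.8% lower. The difference was 6.30 (SE 0.19, adjusted p = 6.09e-08) for hoxb1b, with 78.3 and 94.1 TPM with Cas13d protein, and 0.11 and 0.10 TPM in embryos given Cas13d mRNA. It was 3.14 for hoxb7a (SE 0.25, adjusted p = 7.05e-06), 3.02 for hoxc3a (SE 0.18, adjusted p = 1.17e-06), 3.09 for hoxc8a (SE 0.21, adjusted p = 2.19e-06) and 2.16 for hoxc6a (SE 0.25, adjusted p = 6.64e-05). With Cas13d mRNA hoxb7a and hoxc8a were listed at 0 in both libraries, and the other tested members had at most 0.23 TPM. The differences of all 5 therefore depend on the added 1 TPM and are no fold changes.

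Counted over all 48 members, both libraries with Cas13d protein lay above both with Cas13d mRNA for 24 members and below for 3. Over all 32521 rows the same held for 26.4% and 23%. Among the 24 were all 11 members that were on with Cas13d protein alone. The others had group means below 1 TPM there, such as hoxd4a with 0.19 and 0.04 TPM. By cluster, the 24 were 10 of 11 in the Ba cluster and 4 of 4 in the Bb cluster. Those of the Ba cluster included 2 of 2 members of paralogue groups 10 to 13, hoxb10a and hoxb13a, both below 1 TPM. In the Ca cluster they were 7 of 7 members of groups 1 to 9 and 0 of 4 members of groups 10 to 13. In the Aa, Cb and Da clusters 1 member each was higher (hoxa9a, hoxc6b and hoxd4a), and in the Ab cluster none. The 3 lower ones were hoxc12a, hoxc11b and hoxd9a. When no filter on low values was used, limma called 10 of the 48 members higher and none lower, against 5.49% of all rows called higher. The 5 further ones were hoxb8a (2.02, SE 0.06), hoxb9a (1.80, SE 0.17), hoxb3a (1.52, SE 0.15), hoxc9a (1.30, SE 0.14) and hoxb4a, whose difference was the smallest of the 10 (SE 0.23), with adjusted p-values of 6.98e-06 to 0.0123.

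A comparison that shares no library with the one before is that of szrd1 guides with Cas13d protein against szrd1 guides with Cas13d mRNA. Of the 5 tested members 4 were called higher with protein, against 9.62% of all tested genes. The differences were 4.71 (SE 0.19, adjusted p = 3.01e-07) for hoxb1b, 2.42 (SE 0.25) for hoxb7a, 2.05 (SE 0.21) for hoxc8a and 1.16 (SE 0.18) for hoxc3a. For hoxc6a the difference was 0.70 (SE 0.25, adjusted p = 0.0395), under the minimum size for a call. Both libraries were higher for 15 of 48 members and lower for 3, against 22.4% and 22.3% of all rows. Of the 15, 7 were in the Ba cluster, again with 2 of 2 members of groups 10 to 13. Another 5 were in the Ca cluster, where they again had paralogue numbers of at most 9. The filter used all 6 groups of the set, so the choice of the 5 tested members was shared between both comparisons. They passed it through the groups in which they were high, so the number called supports no difference of the family. The estimate of the spread was also shared, since both comparisons come from the same fit of 6 groups.

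With szrd1 guides added to Cas13d protein, all 5 tested Hox genes were lower than with Cas13d protein alone, and 4 of them were called. Of the 11 members that were on with protein alone, 10 were lower in both libraries, the exception being hoxb1a. Since these 11 were picked by their level with protein alone, that count and the percentages of their level are a description and support no difference. Over all 48 members, 21 were lower in both libraries and 1 was higher, against 16.9% and 19.5% of all rows. For the 11 on members, group means with szrd1 guides were between 23.4% (hoxc3a) and 74.4% (hoxb3a) of those with protein alone. Their median was 42.2%, and hoxb1b stood at 34.8%. Among the 5 tested members 4 were called lower, against 0.381% of all tested genes. All 5 passed the filter through these 2 groups, in which they were high, so that count supports no difference of the family. The differences were -1.51 for hoxb1b (SE 0.19, adjusted p = 0.00121), -1.64 for hoxc3a (SE 0.18, adjusted p = 0.000529), -1.04 for hoxc8a (SE 0.21, adjusted p = 0.011) and -1.03 for hoxc6a (SE 0.25, adjusted p = 0.0262). For hoxb7a it was -0.71 (SE 0.25, adjusted p = 0.101). The calls of hoxc6a and hoxc8a were lost without replicate 2 with szrd1 guides and Cas13d protein, and without replicate 2 with protein alone, with adjusted p-values of up to 0.194 and 0.105. With a pseudocount of 0.1 only hoxb1b was called, and with no filter on low values the call of hoxc6a was lost.

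With Cas13d mRNA, no tested Hox gene was called for szrd1 guides: 0 of 5 passed and 0 had an unadjusted p under 0.05, against 0.924% of all tested genes called. The 5 had at most 0.51 TPM in these 4 libraries. A difference of 1 was not possible at such levels, so the absence of calls does not show that nothing changed. The differences ran from 0 for hoxb7a and hoxc8a, listed at 0 in all 4 libraries, to 0.43 (SE 0.25) for hoxc6a. Both libraries were higher for 6 of the 48 members and lower for none, against 17% and 10% of all rows. The difference between the guide effects with protein and with mRNA was tested directly. It was called for hoxb1b (-1.59, SE 0.27, adjusted p = 0.0246) and hoxc3a (-1.86, SE 0.26, adjusted p = 0.00992), where 0.265% of all tested genes were called in that direction. In the mRNA arm both genes were near 0 (at most 0.23 and 0.30 TPM), so these values are close to the protein contrast alone. The calls were not firm. Both were lost with a pseudocount of 0.1, in a fit of only these 4 groups, and without replicate 2 of the Cas13d protein group. The call of hoxb1b was also lost without any 1 of 4 further libraries. With no filter on low values hoxc3a alone was called, against 0.0799% of all rows.

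The libraries labelled as Cas13d protein with the reporter did not show the Hox levels of those labelled as Cas13d protein alone. There hoxb1b had 0.34 and 0.43 TPM with dnd1 guides and reporter, and 0.19 and 0.24 TPM with the reporter and no guides. Relative to Cas13d protein alone, the reporter libraries without guides were called lower for all 5 tested members, against 9.28% of all tested genes. These 5 passed the filter through the groups with Cas13d protein alone and with szrd1 guides and protein, so that count supports no difference of the family. The differences were -6.16 (SE 0.19, adjusted p = 1.19e-07) for hoxb1b and -1.99 to -3.07 for the 4 others. Both libraries were lower for 24 of 48 members and higher for 1, against 28.3% and 23.4% of all rows. With no filter on low values 10 of the 48 were called lower, against 4.57% of all rows. This comparison and those of Cas13d protein with mRNA and with szrd1 guides share the 2 libraries with Cas13d protein alone. Relative to Cas13d mRNA, the reporter libraries had 0 of 5 tested members called and 0 at an unadjusted p under 0.05, against 1.64% of all tested genes called. There hoxb1b differed by 0.14 (SE 0.19), and both libraries were higher for 2 members and lower for 4, against 17.9% and 19.2% of all rows. The dnd1 guides, set against the reporter libraries without guides, likewise had 0 of 5 called and 0 at an unadjusted p under 0.05, against 0.408% of all tested genes. Both libraries were higher for 5 members and lower for 1, against 22.8% and 11.4% of all rows. In this comparison, and in that of the reporter libraries with Cas13d mRNA, the 5 tested members had at most 0.43 TPM. No difference of 1 was possible at such levels, so the absence of calls does not show that nothing changed. The protein dose in the labels was the same for the reporter groups as for protein alone, apart from the unclear label.

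**Figure D4:**
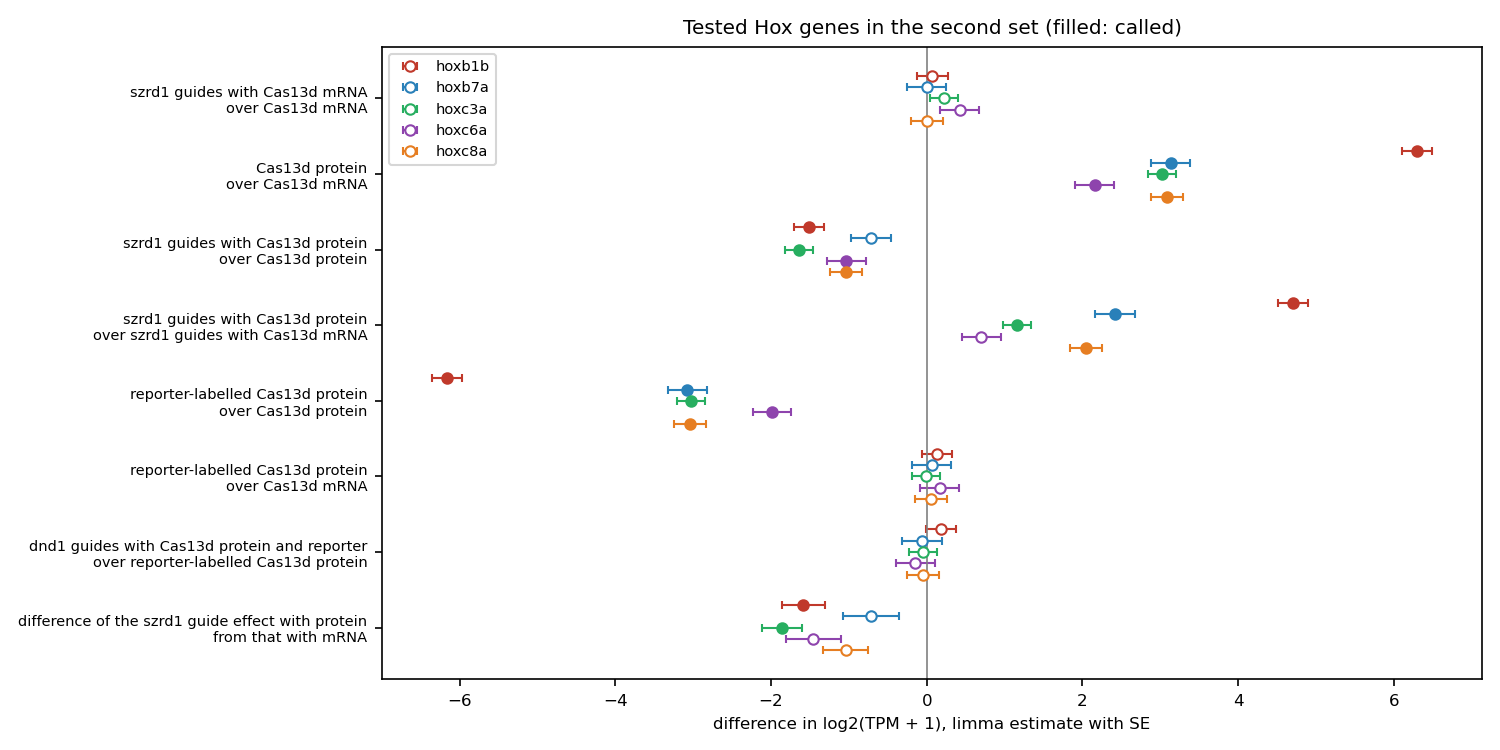
Differences in log2(TPM + 1) with their SE for the 5 tested Hox genes in 8 comparisons of the second set; filled points were called. The estimates lie far to the right for Cas13d protein over Cas13d mRNA, far to the left for the reporter-labelled protein libraries over protein alone, and near 0 for the reporter-labelled protein libraries over Cas13d mRNA.

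In the first set no Hox gene reached the mean of 1 TPM needed for the test. The highest was hoxc11a, a posterior gene, with a set mean of 0.967 TPM. Its 2 values were 0.72 and 1.35 TPM with nanog guides, 1.01 and 1.21 TPM with rfp guides, 1.23 and 1.39 TPM with dnd guides and reporter, 0.65 and 0.94 TPM with the reporter, 1.26 and 0.80 TPM with Cas13d mRNA alone, and 0.62 and 0.42 TPM in uninjected embryos. Both libraries of Cas13d mRNA lay above both uninjected ones, and both with dnd guides and reporter above both with the reporter alone. The nanog and rfp guide groups overlapped Cas13d mRNA alone. In the second set hoxc11a had at most 0.67 TPM. It was listed at 0 in both libraries with szrd1 guides and Cas13d protein. With Cas13d protein alone it had 0.06 and 0.21 TPM, and with Cas13d mRNA alone 0 and 0.56 TPM. The sets differ in embryos and cannot be told apart from the groups they hold.

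Without the filter on low values, limma called 0 of the 48 members in each of the 5 comparisons of the first set. No member exceeded 1.39 TPM in this set, which left little room for the difference of 1 that a call needs. The absence of calls therefore does not show that the members were unchanged. The numbers at an unadjusted p under 0.05 were 4 for nanog guides, 2 for rfp guides, 3 for Cas13d mRNA over uninjected embryos, 1 for the reporter and 3 for dnd guides. Of all rows, 0.818%, 0.0707%, 0.00615%, 0.0369% and 0.0154% were called in that order. Guides against nanog, a maternal activator of the embryo's own genome, gave both libraries above those of Cas13d mRNA for 7 of 48 members and below for 1, against 16.6% and 14% of all rows. Among them was hoxb1b, with 0.21 and 0.90 TPM with nanog guides while Cas13d mRNA alone gave 0.13 and 0.12 TPM. Uninjected embryos had 0.08 and 0.34 TPM of hoxb1b, which overlaps the values with nanog guides. The rfp guides gave 7 members higher and 3 lower, against 20.3% and 23.1%. Cas13d mRNA over uninjected embryos gave 5 higher and 3 lower, against 22.6% and 12.6%, the reporter 3 and 3, against 28.1% and 11.3%, and dnd guides 5 and 0, against 15.2% and 11.9%.

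Some partner genes of the Hox system were also called between these groups. For this and the following lists, 11.1% of all tested genes were called higher and 10.8% lower with Cas13d protein than with Cas13d mRNA. Between the groups with szrd1 guides, 9.62% were called higher with protein than with mRNA. A list gene could pass the filter through the groups in which it was high, as meis2b did. The counts and medians of these lists are therefore descriptions and support no difference of a list. Of 14 TALE cofactor genes, 8 were tested, and 3 were called higher and none lower with Cas13d protein than with Cas13d mRNA; their median difference was 0.56, against 0.06 over all tested genes. The 3 were meis2b (4.62, SE 0.16, adjusted p = 9.82e-08), meis1b (4.41, SE 0.21, adjusted p = 3.50e-07) and meis3 (3.87, SE 0.25, adjusted p = 1.95e-06), all encoding homeodomain partners of Hox and Pbx proteins. For meis2b the levels were 8.40 and 9.29 TPM with szrd1 guides and Cas13d protein, 25.1 and 27.4 TPM with protein alone, and 0.17 and 0.05 TPM with Cas13d mRNA alone. These 3 genes were also called higher when szrd1 guides with protein were set against szrd1 guides with mRNA. The maternally supplied partner pbx4 was abundant in all groups of the second set, with 219.3 and 235.0 TPM with szrd1 guides and Cas13d protein, 230.3 and 280.8 TPM with protein alone, and 193.0 and 174.0 TPM with Cas13d mRNA; it was chosen for mention after its values were seen.

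Of the Cdx, ParaHox and Evx genes 4 rows of 10 were tested, and 2 were called higher with Cas13d protein than with Cas13d mRNA. They were cdx1a (3.98, SE 0.18, adjusted p = 2.59e-07) and cdx4 (2.03, SE 0.15, adjusted p = 4.08e-06), which encode activators of trunk Hox genes. For cdx4 the levels were 352.9 and 337.1 TPM with szrd1 guides and Cas13d protein, and 565.0 and 548.6 TPM with protein alone. With szrd1 guides and Cas13d mRNA they were 38.2 and 58.4 TPM, and with Cas13d mRNA alone 136.4 and 135.4 TPM. So cdx4, unlike the Hox genes, was well above 0 in every library of this set.

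Of 20 retinoic acid genes 13 were tested, and 7 were called higher and none lower with Cas13d protein than with Cas13d mRNA, with a median of 1.14. The leading 3 were the receptor gene rxrgb (1.98, SE 0.21, adjusted p = 3.50e-05), the retinaldehyde reductase gene dhrs3b (1.90, SE 0.16, adjusted p = 1.12e-05) and cyp26a1, which encodes a retinoic acid breakdown enzyme (1.74, SE 0.09, adjusted p = 4.39e-07). Between the groups with szrd1 guides, 6 of 13 were called higher with protein than with mRNA, led by dhrs3b (2.36, SE 0.16, adjusted p = 4.32e-06) and by aldh1a2, the gene of the main retinoic acid synthesis enzyme (2.05, SE 0.10, adjusted p = 5.67e-07). With Cas13d protein over Cas13d mRNA, genes that make, break down and sense retinoic acid were therefore among those called higher. Between the groups with szrd1 guides the breakdown gene cyp26a1 was not called. Of 8 tested hindbrain patterning genes, 5 were called higher and 1 lower with Cas13d protein. The leading ones were otx2b (4.60, SE 0.21, adjusted p = 2.96e-07), a forebrain and midbrain gene, epha4a (2.85, SE 0.16, adjusted p = 8.44e-07), a receptor gene of hindbrain segments, and gbx1 (2.61, SE 0.16, adjusted p = 1.42e-06), an early hindbrain gene. The signal gene fgf3 was lower (-2.29, SE 0.17, adjusted p = 3.60e-06). Of the 9 Polycomb and Trithorax genes, which encode chromatin regulators that keep Hox genes off or on, jarid2b was called higher (1.18, SE 0.22, adjusted p = 0.00123). The 8 others were not called. Over all tested genes 11.1% were called higher, so 1 call among 9 is about that share.

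Genes next to and within the Hox clusters were examined from RefSeq gene order in assembly GRCz12tu, which is not the build behind the table and was used for names only. Of 36 rows found, 23 were tested. Over all tested genes, 11.1% were called higher and 10.8% lower with Cas13d protein than with Cas13d mRNA. With Cas13d protein 1 was called higher than with Cas13d mRNA, the retinoic acid receptor gene rarga beside the Ca cluster (1.53, SE 0.21, adjusted p = 0.000204). The 4 called lower were led by si:dkey-81p22.11, a long noncoding RNA gene within the Ca cluster (-1.37, SE 0.28, adjusted p = 0.00236), and by atp5mc1 (-1.30, SE 0.09, adjusted p = 2.67e-06) and lnpa (-1.22, SE 0.12, adjusted p = 2.45e-05). The noncoding gene had 1.17 and 1.26 TPM with Cas13d protein alone, and 4.72 and 4.74 TPM in embryos given Cas13d mRNA, while the Ca members called in that comparison were higher with protein. The median of the 23 was -0.31, against 0.06 over all tested genes.

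Over the 12 group means, and among 12458 rows with a group mean of at least 5 TPM somewhere, the 5 rows most like hoxb1b were smyd1b (a muscle chromatin gene), meis2b, RF00271, foxc1b (a forkhead factor of the mesoderm) and gabrp (a receptor subunit gene). Pearson's r of log2(TPM + 1) was 0.998 for the first pair, 0.997 for RF00271 and 0.996 for both last ones. The groups with Cas13d protein alone and with szrd1 guides and protein set these correlations, which are given as a description. Among the Hox genes in that comparison r was 0.994 for hoxc8a, 0.965 for hoxb7a and 0.957 for hoxc3a. The group means of smyd1b were 4.11 TPM with szrd1 guides and protein, 8.07 TPM with protein alone and at most 0.30 TPM in any other group.

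Levels of genes tied to embryonic stage differed between the same libraries. Of the genes that come on from late gastrula to somite stages, 12 of 21 rows were tested. In the first set 5 rows passed the same filter. Rows could pass it through the groups in which they were high, so the counts and medians of the stage lists support no difference. With Cas13d protein 9 were called higher and none lower than with Cas13d mRNA, with a median of 3.08; they included dlx3b (5.30, SE 0.29, adjusted p = 6.43e-07), an ectoderm border gene, and all 4 rows of ctslb (1.34 to 6.22), a hatching gland gene with near-identical copies whose reads may be split. The list summed to 388 to 476 TPM with szrd1 guides and Cas13d protein, 607 to 682 TPM with protein alone, 152 to 164 TPM with dnd1 guides and reporter, 162 to 170 TPM with protein and reporter, 115 to 116 TPM with szrd1 guides and Cas13d mRNA, and 153 to 175 TPM with Cas13d mRNA. Of the oocyte maternal transcripts 9 of 9 tested were called lower with Cas13d protein (median -1.85), led by wee2 (-3.07), cth1 (-2.93) and btg4 (-2.91). Their 11 rows summed to 145 to 153 TPM with szrd1 guides and protein, 55.9 to 59.9 TPM with protein alone, 259 to 267 TPM with dnd1 guides and reporter, 197 to 206 TPM with protein and reporter, 349 to 375 TPM with szrd1 guides and Cas13d mRNA, and 241 to 248 TPM with Cas13d mRNA. So the 4 libraries with Hox signal also had the highest sums of the first list and the lowest of the second. With szrd1 guides and Cas13d protein, set against Cas13d protein alone, 6 of the 9 oocyte transcripts were called higher and none lower. They were led by dazl (2.87), btg4 (2.04) and cth1. Of all 14716 tested genes, 375 were called higher and 56 lower there. In that comparison 2 of the 12 late rows were called lower and none higher, namely rx3 (-2.22), an eye field gene, and dlx3b (-1.59), and of the 8 TALE genes meis2b (-1.47) and meis3 (-1.12) were called lower. The part of these shifts in the Hox result was not tested.

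The markers of the early embryo's cell types were listed throughout, but the yolk layer gene mxtx2 was below 1 TPM in both libraries with Cas13d protein alone. All 11 were above 0 in every library, and they summed to 4681 to 5163 TPM with szrd1 guides and Cas13d protein, 5408 to 5566 TPM with Cas13d protein alone, and 4587 to 4590 TPM with Cas13d mRNA. With Cas13d protein 3 were called higher than with Cas13d mRNA, namely otx2b, the endoderm gene sox17 (1.78, SE 0.21, adjusted p = 6.62e-05) and the outer layer keratin gene cyt1 (1.34, SE 0.10, adjusted p = 4.45e-06). The 4 called lower included the yolk layer gene mxtx2 (-4.51, SE 0.23, adjusted p = 4.43e-07), the early neural gene sox3 (-1.44, SE 0.06, adjusted p = 1.56e-07) and the mesoderm gene tbxta (-1.08, SE 0.06, adjusted p = 7.72e-07). The level of mxtx2 was 8.32 and 9.31 TPM with szrd1 guides and Cas13d protein, and 0.09 and 0.55 TPM with protein alone. In the Cas13d mRNA group it was 36.4 and 22.4 TPM. The part of these cell type markers in the Hox result was not tested.

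**Figure D5:**
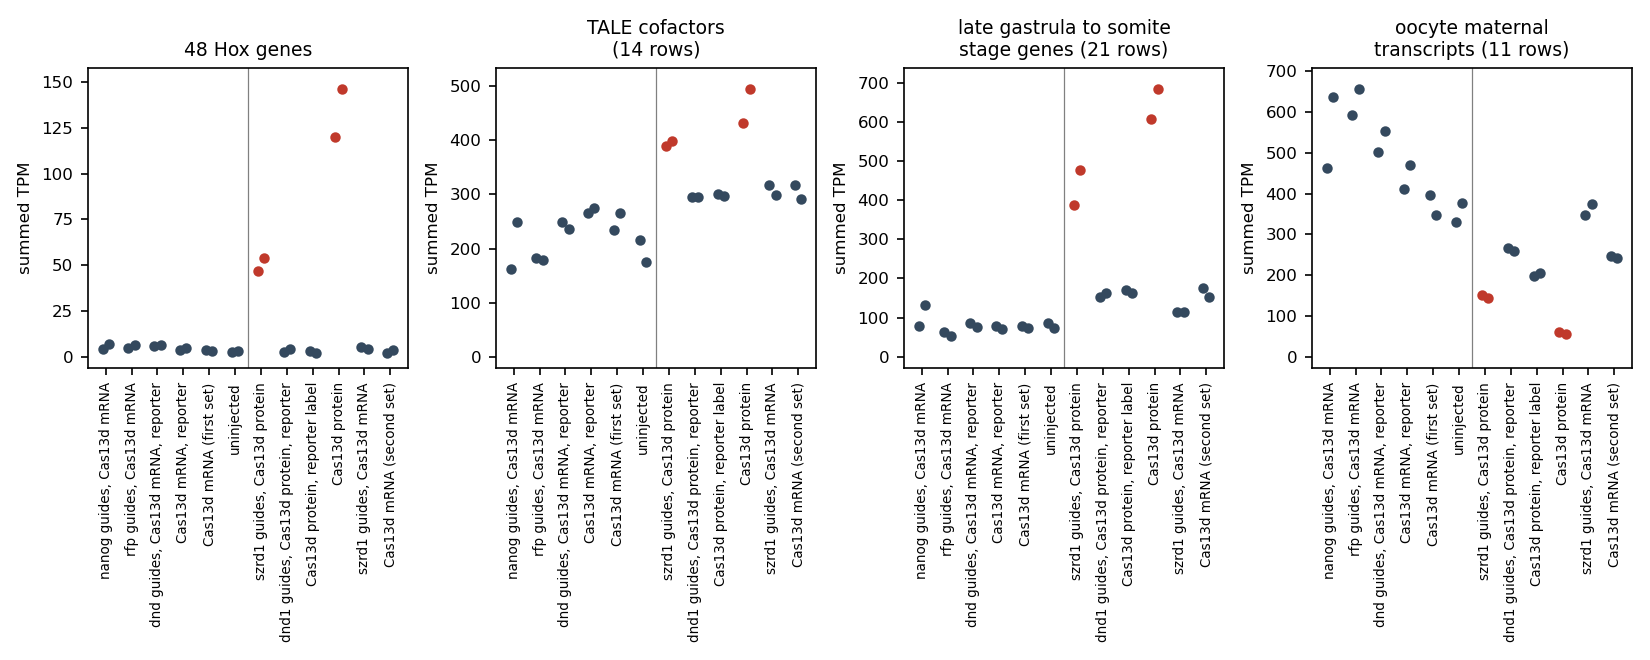
Summed TPM per library (points, 2 per group, the first set left of the line) of the 48 Hox genes, the TALE cofactors, the late gastrula to somite stage genes and the oocyte maternal transcripts. The libraries with szrd1 guides and Cas13d protein and with Cas13d protein alone (red) are the highest in the first 3 panels and the lowest in the last.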

How the data were processed

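The authors deposited 1 table of TPM for 24 libraries, made from poly(A) stranded libraries and single reads of 75 bp per the labels' protocols. Per the submitters' processing notes, bcl2fastq 2.18, STAR 2.6.1c, RSEM (no version given) and danRer11 were used. The strand setting of the counting is not given in the sources used here, so overlapping and antisense genes, and genes with near-identical copies, are uncertain. TPM keeps no depth. An exact 0 means only that a gene is listed at 0, and 13927 to 15757 rows per library reached 1 TPM.

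Values were analysed as log2(TPM + 1), which understates the change of low genes, with limma 3.58.1 in R 4.3.3 (eBayes with trend) in each set of 12 libraries, for genes with a mean of at least 1 TPM (15253 in the first set, 14716 in the second). The 6 groups of a set shared the estimate of the spread, tests were two-sided, and Benjamini-Hochberg adjustment covered every gene in the fit. The labels do not say whether replicates came from separate clutches, so p-values measure the spread between these samples, which may be technical. Replicate pairs had at most 0.383% identical values. The model was checked on simulated data.

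The Hox genes, the lists and the tests were chosen with earlier results of these data known. All members were accounted for and those on in a group were described. Of the lists, called genes were named for some comparisons of the second set only, at most 3 per direction and comparison. Calls of list genes in other comparisons were left out. Among them were cdx1a (1.39) and aldh1a2 (-2.25) for nanog guides and cdx4 (-1.34) for rfp guides, each over Cas13d mRNA. Others were cdx4 (-1.50) for szrd1 guides with Cas13d mRNA over Cas13d mRNA, and meis2b (-4.54) for reporter-labelled protein over protein alone. A gene in 2 lists counts in both. Alternatives were a pseudocount of 0.1, no filter, a mean of at least 5 TPM, median-of-ratios scaling, only the groups compared, a replicate block, no minimum difference, and each replicate left out. Same-numbered replicates were not paired: their deviations from the group means correlated at -0.198 to 0.15. No sequences or coordinates were used here.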

Additional observations from a re-analysis of the deposited data

Results flagged for a closer look

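For hoxb1b the effect of szrd1 guides with Cas13d protein, less that with Cas13d mRNA, was -1.59 in log2(TPM + 1) (SE 0.27, limma adjusted p = 0.0246). For hoxc3a the same difference was -1.86 (SE 0.26, adjusted p = 0.00992). Both were picked out because the difference between the guide effects was itself tested. In all 4 libraries with Cas13d mRNA, with or without szrd1 guides, hoxb1b was at most 0.23 TPM and hoxc3a at most 0.30 TPM, so the mRNA arm left little room for a lower level and the values are close to those of the protein arm alone. Both calls were lost with a pseudocount of 0.1, in a fit of only these groups and without replicate 2 of the Cas13d protein group.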

How the results depend on the processing

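None of the 20 called Hox differences changed sign under the alternatives run; the uncalled ones were not recomputed. Counts of called members moved most with the filter, since only hoxb1b has a mean of at least 5 TPM. With that filter 1 was called for Cas13d protein over mRNA, for szrd1 guides with protein over protein alone, for szrd1 guides with protein over szrd1 guides with mRNA, for the reporter-labelled protein over protein alone, and for the difference of the guide effects. With no filter, 10 were called for Cas13d protein over mRNA, 10 for the reporter-labelled protein over protein alone and 1 (hoxc3a) for the difference of the guide effects. It gave 6 for szrd1 guides with protein over szrd1 guides with mRNA. For szrd1 guides with protein over protein alone it left 3 (hoxb1b, hoxc3a and hoxc8a). For szrd1 guides with protein over protein alone, a pseudocount of 0.1 left 1 call, a fit of only those groups 2, and leaving out 1 library 2 to 5. For the difference of the guide effects a pseudocount of 0.1 and a fit of only those groups left 0 calls, and leaving out 1 library 0 to 2. There hoxb1b was lost without either replicate with Cas13d protein alone, replicate 1 with szrd1 guides and protein, replicate 2 with szrd1 guides and mRNA, or replicate 1 with Cas13d mRNA, and hoxc3a without replicate 2 with Cas13d protein. In these fits the lone library of a group was assumed to vary like the others; the highest adjusted p was 0.124 for hoxb1b and 0.0594 for hoxc3a. With the replicate block the counts were 5, 4, 4, 5 and 2 for Cas13d protein over mRNA, szrd1 guides with protein over protein, szrd1 guides with protein over szrd1 guides with mRNA, reporter-labelled protein over protein, and the difference of the guide effects, as without it, and it changed no other call. Crossing the replicate numbers, chosen after seeing the data, called 1 and 112 genes over all tested for Cas13d mRNA over uninjected embryos and for the reporter over Cas13d mRNA, against 1 and 128, with no Hox gene tested. Scaling moved the median of all genes by 0.101 and 0.116 in those 2 comparisons. Unknown depth limits all members below 1 TPM.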
